A study of Mus musculus with 6 samples.

Results

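The genes described here are the striated muscle and non-muscle myosin light chains Myl1, Myl2, Myl3, Myl4, Myl6, Myl6b and Mylpf and the light chain kinases Mylk2 and Mylk4. They were chosen by name, and the symbols matched 9 of the 53947 genes in the tables. Total RNA depleted of ribosomal RNA had been sequenced from the quadriceps of mice aged 12 weeks, in 3 wild-type (WT) libraries and 3 HSA-LR libraries (HSALR in the labels). The transgene of HSA-LR mice, a model of myotonic dystrophy, is a human skeletal actin gene with an expanded CTG repeat. Its promoter is active in skeletal muscle, which limits the model to that tissue. The WT mice lack it, no treatment is given for either group, and strain and littermate status are not given in the sources used here. The titles number the libraries of each genotype and do not state whether 1 animal gave 1 library, so the p-values below reflect only how far these samples spread, which may be technical.

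Each myosin head carries an essential and a regulatory light chain on its neck, and the light chains differ between fast, slow, atrial and non-muscle myosins. In fast skeletal fibres the essential chains come from Myl1, which makes a long and a short form from separate promoters, and the regulatory chain is Mylpf. The skeletal muscle light chain kinase Mylk2 is switched on by calcium and phosphorylates the regulatory chain, which raises force at submaximal calcium.

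The libraries held 11468959 to 15023710 counts. CPM is the count scaled to a common library size with TMM factors from edgeR. A level of 3 counts was worth 0.2 to 0.262 CPM when library totals were used without those factors. With the factors, 3 counts in HSA-LR library 1 were worth 0.285 CPM. The abundant small RNAs 7SL and 7SK took 14.14% to 15.53% of counts in WT and 18.84% to 43.94% in HSA-LR. HSA-LR library 1 held the 43.94% and stands apart, and values without it are given beside each of the 9 genes that was called. Of 13576 genes tested with edgeR, 11.8% were called at an adjusted p below 0.05, 4.28% higher and 7.48% lower in HSA-LR. Of the 9 light chain and kinase genes, 3 were called: Mylk2 and Mylk4 were lower and Myl4 was higher. Their median log2 fold change was -0.09, against 0.04 over all genes tested. The groups did not overlap in CPM for 6 of the 9, against 37.8% of all genes tested. Since whole muscle was sampled, fewer cells of a type and less RNA per cell cannot be told apart.

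Levels were compared between genes in TPM, a transcript abundance that is corrected for length and sums to the same total in every library. The fast chains Mylpf and Myl1 were the most abundant in all 6 libraries, in that order. In WT, Mylpf reached 8530 ± 479 TPM (SD, n = 3) and Myl1 8230 ± 571 TPM, means that differed by less than their SD. In the WT means the kinases followed, with Mylk4 at 216 ± 44.5 TPM and Mylk2 at 164 ± 4.92 TPM, and Mylk4 was above Mylk2 in each of the 6 libraries. The slow chains Myl2 (103 ± 139 TPM) and Myl3 (54.3 ± 83 TPM) and the non-muscle chain Myl6 (77.1 ± 12.2 TPM) could not be placed in order in WT, because the slow chains varied between libraries by more than their means. For the same reason Myl2 could not be placed against the kinases: in WT library 2 it stood at 263.4 TPM, above both of them, and in HSA-LR library 1 Myl2, Myl6 and Myl3 all stood above both kinases. Myl4, the embryonic and atrial essential chain, at 2.64 ± 0.795 TPM, and Myl6b, a further essential chain of slow and non-muscle myosin, at 0.743 ± 0.327 TPM, were the lowest in that order in every library.

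**Figure D1:**
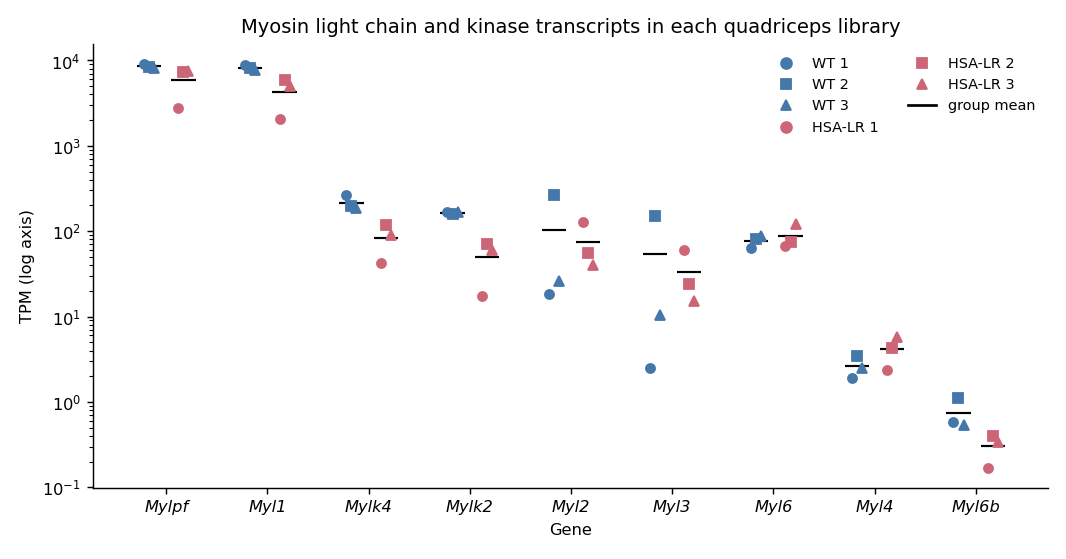
TPM of the 9 genes on a log axis in each library, with WT in blue, HSA-LR in red, the symbol shape giving the library number and black lines the group means. Mylpf and Myl1 lie above all others in every library, and both kinases lie lower in each HSA-LR library than in each WT library.

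The clearest differences were in the kinases. Mylk2, the kinase of the regulatory chain in skeletal muscle, was measured at 772, 699 and 818 CPM in WT libraries 1 to 3 and at 189, 375 and 345 CPM in HSA-LR libraries 1 to 3. Every HSA-LR library lay below every WT library, and HSA-LR library 1 was the lowest. Mylk2 was 2.51-fold lower in HSA-LR (log2 fold change -1.33 ± 0.25 SE, adjusted p = 0.0148). Its expected counts were 10921, 10550 and 10996 in WT and 1986, 4653 and 5137 in HSA-LR, so counting error was small beside the spread between libraries. Without HSA-LR library 1 the log2 fold change was -1.07 (adjusted p = 0.00113). The call was lost without WT library 1 (adjusted p = 0.0809), WT library 2 (0.0624), WT library 3 (0.0767) or HSA-LR library 3 (0.0684), while the log2 fold change stayed between -1.44 and -1.27 in those fits. Over all genes those fits called 166, 217, 211 and 185 genes in that order, against 1597 with all 6 libraries. Calls lost in the same fits for genes below are to be read beside these numbers.

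Mylk4, a further member of the kinase family that is expressed in striated muscle, was measured at 1520, 960 and 996 CPM in WT and at 349, 592 and 484 CPM in HSA-LR. The groups did not overlap, WT library 1 was the highest and HSA-LR library 1 the lowest. Mylk4 was 2.45-fold lower in HSA-LR (log2 fold change -1.29 ± 0.25 SE, adjusted p = 0.0176), and the log2 fold change was -1.10 without HSA-LR library 1 (adjusted p = 0.0125). Its mean transcript length was shorter in HSA-LR, as described below. With an effective length offset the log2 fold change was smaller, at -0.94 (adjusted p = 0.0351), and still called. The call was lost without WT library 1 (adjusted p = 0.0917), WT library 2 (0.0588), WT library 3 (0.0657) or HSA-LR library 3 (0.0829). With the share of 7SL and 7SK as a covariate, Mylk2 stayed called at -0.82 (adjusted p = 0.00966) and Mylk4 did not at -0.90 (adjusted p = 0.082). In TPM the kinases were again apart, at 166.08, 158.54 and 167.78 in WT against 17.49, 71.58 and 60.84 in HSA-LR for Mylk2, and at 267.08, 197.13 and 184.55 against 42.47, 118.13 and 91.12 for Mylk4.

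**Figure D2:**
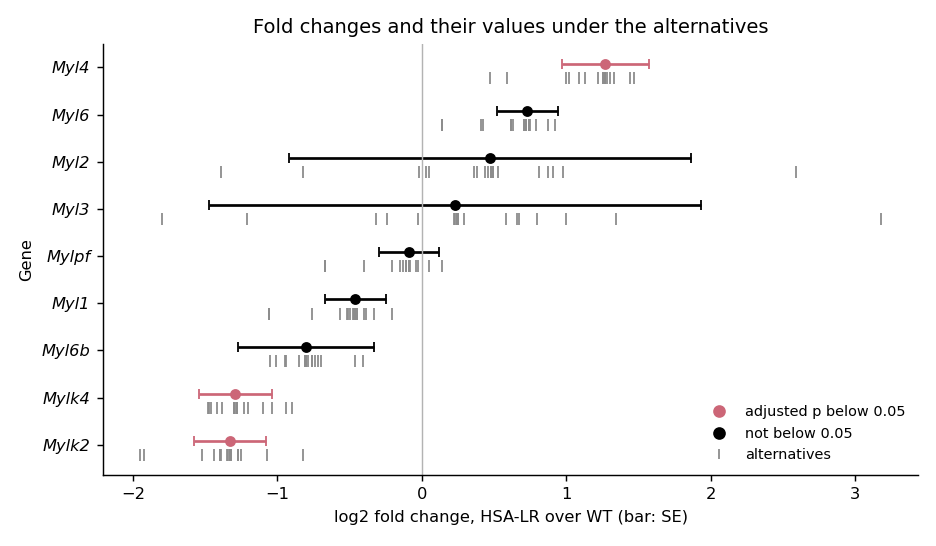
Log2 fold change of HSA-LR over WT for each gene with its SE as a bar (red, adjusted p below 0.05), and grey ticks for its value in each alternative fit. Mylk2, Mylk4, Myl1 and Myl6b stay below 0 and Myl4 and Myl6 above 0 in every fit shown. The slow chains Myl2 and Myl3 spread to both sides of 0.

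The promoter windows of Mylk4, of the fast chains Mylpf and Myl1 and of the slow chain Myl3 are shown because these genes hold the kinase, fast and slow patterns described here. They are RefSeq windows (table build GRCm38.p6) of 250 bases before and 50 from the start site, placed on GRCm39 by an exact match, and each start site lies at most 14 bases from a transcript start of the same gene in GENCODE M39. Capitals mark matches on either strand to the E-box CANNTG, the MCAT motif CATTCC, the TATA motif TATAAA, the MEF2 motif and the CArG box, and no matches of different motifs overlapped.
Mylk4 (chr13:32967898-32968197, minus strand): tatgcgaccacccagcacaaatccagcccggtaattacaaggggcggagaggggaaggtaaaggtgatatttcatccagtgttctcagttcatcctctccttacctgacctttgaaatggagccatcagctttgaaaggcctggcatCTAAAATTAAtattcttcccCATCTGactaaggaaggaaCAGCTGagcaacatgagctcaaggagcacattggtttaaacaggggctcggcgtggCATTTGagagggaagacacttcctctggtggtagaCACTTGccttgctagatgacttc
Mylpf (chr7:126810530-126810829, plus strand): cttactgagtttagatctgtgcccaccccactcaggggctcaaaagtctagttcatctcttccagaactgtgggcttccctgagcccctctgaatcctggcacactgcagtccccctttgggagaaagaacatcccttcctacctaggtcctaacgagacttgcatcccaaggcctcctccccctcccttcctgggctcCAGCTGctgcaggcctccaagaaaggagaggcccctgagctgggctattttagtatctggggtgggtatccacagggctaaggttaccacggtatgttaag
Myl1 (chr1:66984166-66984465, minus strand): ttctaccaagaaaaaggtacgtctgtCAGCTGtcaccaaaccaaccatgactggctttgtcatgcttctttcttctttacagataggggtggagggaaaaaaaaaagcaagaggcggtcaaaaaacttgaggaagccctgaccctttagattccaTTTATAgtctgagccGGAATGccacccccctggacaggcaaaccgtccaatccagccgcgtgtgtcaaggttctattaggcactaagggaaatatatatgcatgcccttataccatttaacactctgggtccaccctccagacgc
Myl3 (chr9:110592496-110592795, plus strand): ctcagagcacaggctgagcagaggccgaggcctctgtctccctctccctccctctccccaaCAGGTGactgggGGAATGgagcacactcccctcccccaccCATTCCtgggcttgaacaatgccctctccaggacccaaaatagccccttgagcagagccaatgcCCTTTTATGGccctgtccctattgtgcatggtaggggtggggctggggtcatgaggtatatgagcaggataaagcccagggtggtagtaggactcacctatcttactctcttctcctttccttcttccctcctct
Windows for 8 of the 9 genes were matched, and Mylk2 had no entry. The Myl2 windows lie kilobases from the annotated gene and are not shown. Of the 32851 windows in the table, 72.3% held an E-box, 14.7% the MCAT motif, 13.6% the TATA motif, 3.19% the MEF2 motif and 1.63% the CArG box. The Mylk4 window held 4 E-boxes and a MEF2 match, which begins at position -103 from the start site. Mylpf held 1 E-box at position -51. Myl1 held 1 E-box, 1 MCAT match and 1 TATA match, and Myl3 held 1 E-box, 2 MCAT matches and a CArG box at position -85. The Myl1 window covers only the upstream start, at base 66984215. Other Myl1 transcripts start near base 66974513, and no window was available for that promoter. A letter match is a description and does not show a bound site.

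Among the fast chains, Mylpf was measured at 8910, 7820 and 8340 CPM in WT and at 6360, 8150 and 9000 CPM in HSA-LR, and the groups overlapped. Its log2 fold change was -0.09 ± 0.21 SE (adjusted p = 0.792). Myl1 was measured at 8830, 7600 and 8060 CPM in WT and at 4850, 6730 and 6220 CPM in HSA-LR. Every HSA-LR library lay below every WT library, but the gene was not called (log2 fold change -0.46 ± 0.21 SE, adjusted p = 0.168). DESeq2 called it lower (-0.46, adjusted p = 0.0459). Without HSA-LR library 1 its value was -0.33 (adjusted p = 0.13). TPM gave larger differences, since TPM in HSA-LR was lower over all genes tested (median log2 fold change -0.46 on log2(TPM + 0.1)): Myl1 stood at -1.06 (adjusted p = 0.0557) and Mylpf at -0.67 on that scale, neither of them called, and with a pseudocount of 1 Myl1 was called (-1.06, adjusted p = 0.0488).

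Ratios within a library do not depend on how libraries are scaled. Per 100 TPM of Mylpf, Myl1 stood at 98.0, 95.6 and 95.8 in WT and at 74.4, 79.7 and 66.7 in HSA-LR, with no overlap. Mylk2 stood at 1.84, 1.88 and 2.07 per 100 TPM of Mylpf in WT and at 0.633, 0.968 and 0.808 in HSA-LR. Mylk4 stood at 2.95, 2.34 and 2.28 in WT and at 1.54, 1.60 and 1.21 in HSA-LR. Relative to the regulatory chain message, both kinases and Myl1 were thus lower in every HSA-LR library. Mylpf and the kinases fall in different length classes, with median log2 fold changes of 0.31 and -0.07. These ratios do not remove that shift, and its part in them was not tested. Mylk4 per 100 TPM of Mylk2 overlapped between the groups, at 161, 124 and 110 in WT and 243, 165 and 150 in HSA-LR. These ratios are given as descriptions, with no test.

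**Figure D3:**
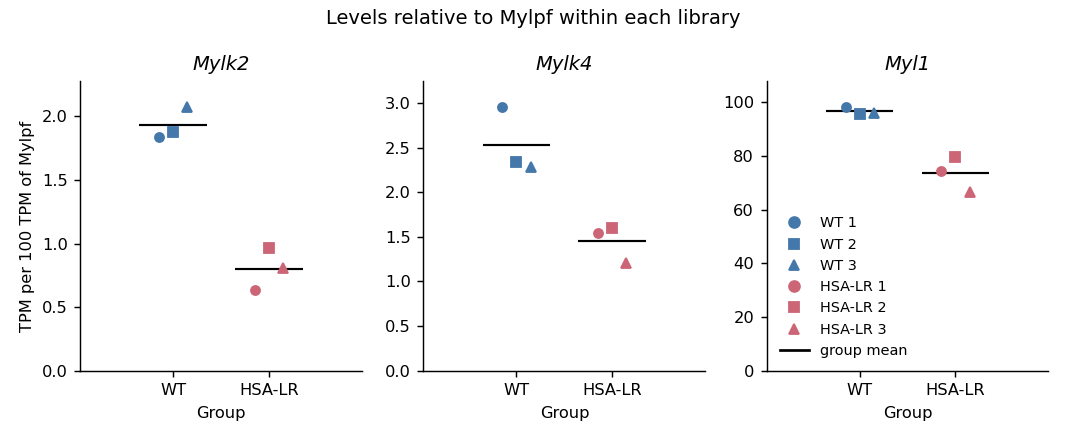
TPM of Mylk2, Mylk4 and Myl1 per 100 TPM of Mylpf in each library (vertical axes start at 0), WT in blue and HSA-LR in red, with black lines for the group means. In each panel all 3 HSA-LR libraries lie below all 3 WT libraries.

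The slow chains varied widely between libraries of the same genotype. Myl2, the slow and ventricular regulatory chain, was measured at 14.9, 208 and 22.7 CPM in WT and at 249, 51.5 and 40.8 CPM in HSA-LR. Myl3, the slow and ventricular essential chain, was measured at 3.25, 184 and 14.1 CPM in WT and at 179, 33.9 and 23.9 CPM in HSA-LR. WT library 2 and HSA-LR library 1 were the highest for both genes, and the groups overlapped. Within WT the highest library exceeded the lowest 56.6-fold for Myl3 and 14.0-fold for Myl2, and within HSA-LR 7.49-fold and 6.10-fold. The log2 fold changes were 0.47 ± 1.39 SE for Myl2 (adjusted p = 0.845) and 0.23 ± 1.70 SE for Myl3 (adjusted p = 0.94), errors that leave a difference of several fold in either direction undetectable here. They moved to 2.59 and 3.18 without WT library 2 (adjusted p = 0.243 and 0.286) and to -0.82 and -1.21 without HSA-LR library 1 (adjusted p = 0.777 and 0.748).

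Of the 12 genes listed for slow fibres, 9 were highest in the same pair of libraries, and Mybpc1, Fhl1 and Mb were not. Myh7b, among the 9, stood at only 0.967 to 1.43 CPM, so its place rests on few counts. The share of all genes with that highest pair was not computed. Mb stood at 2230 CPM in WT library 2, below all 3 HSA-LR libraries, Fhl1 was highest in HSA-LR libraries 2 and 3, and Mybpc1 was lowest in HSA-LR library 1 at 865 CPM. The slow heavy chain Myh7 was measured at 15, 520 and 5.2 CPM in WT and at 302, 65.2 and 24.5 CPM in HSA-LR. The slow troponin I gene Tnni1 was measured at 3.11, 68.6 and 2.45 CPM in WT and at 55.4, 10.5 and 7.52 CPM in HSA-LR. Over the 6 libraries the log2 CPM of Myl2 and Myl3 had a Pearson r of 0.98. Among 6882 other genes that averaged 10 CPM or more, those most like Myl3 were Myoz2 (r = 0.9972), Esam (0.9611) and Casq2 (0.956), and those most like Myl2 were Myoz2 (0.9848), Esam (0.9811) and Tnni1 (0.9811). For Mylk4 they were Ino80c (0.9978), Atf7 (0.9966) and Atxn1 (0.995). These are descriptions over 6 libraries that also share depth and RNA composition, with no test. Of the summed TPM of Myl2 and Mylpf, Myl2 made up 0.201% to 3.03% in WT and 0.528% to 4.41% in HSA-LR, so the regulatory chain message was mainly Mylpf in every library. The heart also uses these chains. Of the heart muscle genes, Myl7, the atrial regulatory chain, had 0 counts in all 6 libraries. This allows up to 3 counts, which is 0.285 CPM in HSA-LR library 1. Nppa had 1 count in HSA-LR library 2 and 0 in the others, and Tnni3 had 0 counts in all WT libraries and 3, 2 and 6 in HSA-LR. Myh6, a cardiac heavy chain, was measured at 1.63, 40.3 and 2.01 CPM in WT and at 22.4, 4.6 and 3.02 CPM in HSA-LR, and was highest in the same pair of libraries as Myl2 and Myl3. In that pair the expected counts of Myh6 (607.68 and 235.71) and Myh7 (7848.32 and 3173.29) were not whole. RSEM leaves such counts where reads are divided between genes, and the part of Myh7 reads in the Myh6 values was not tested. The part of any other tissue in the slow chain values was not tested.

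**Figure D4:**
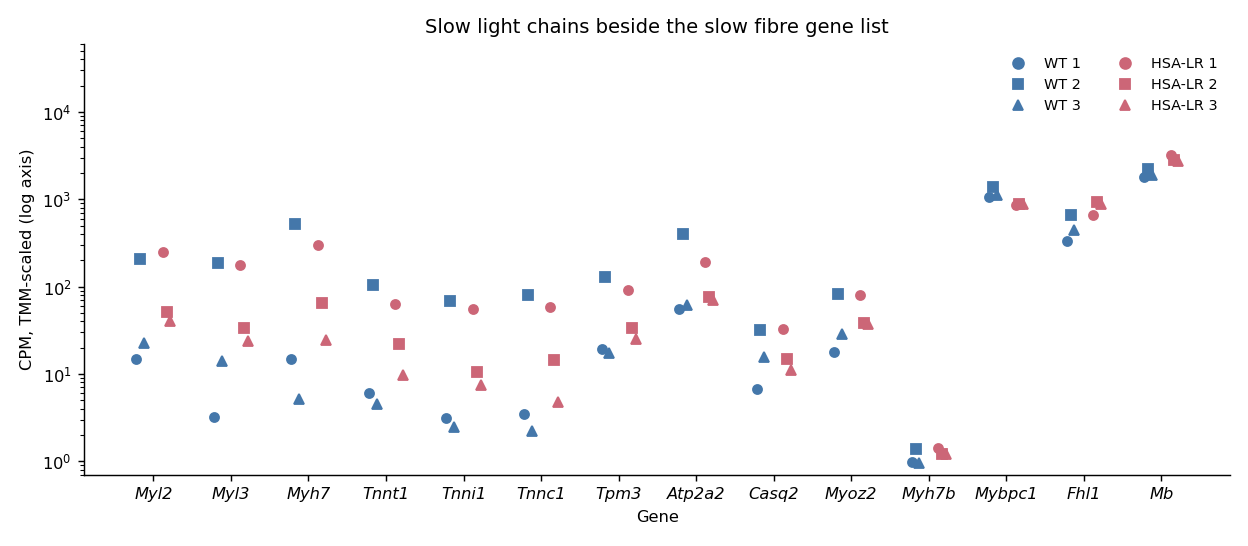
CPM on a log axis of Myl2, Myl3 and the 12 listed slow fibre genes in each library, WT in blue and HSA-LR in red, with the symbol shape giving the library number. WT library 2 and HSA-LR library 1 are the highest pair for Myl2, Myl3 and 9 of the 12, and not for Mybpc1, Fhl1 and Mb.

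Myl4 was the only called light chain. It was measured at 2.19, 3.78 and 2.97 CPM in WT and at 6.94, 5.24 and 9.33 CPM in HSA-LR, and every HSA-LR library lay above every WT library. It was 2.41-fold higher in HSA-LR (log2 fold change 1.27 ± 0.30 SE, adjusted p = 0.0297), on expected counts of 31, 57 and 40 in WT and 73, 65 and 139 in HSA-LR. The value was 1.3 without HSA-LR library 1 (adjusted p = 0.0206). The call was lost without WT library 1 (adjusted p = 0.136), WT library 2 (0.0768), WT library 3 (0.11) or HSA-LR library 3 (0.107). In TPM the groups overlapped, at 1.90, 3.48 and 2.53 in WT and 2.36, 4.3 and 5.82 in HSA-LR. As a share of the summed TPM of the 5 essential chain genes, Myl4 was 0.0213%, 0.042% and 0.0322% in WT. In HSA-LR the share was 0.108%, 0.0718% and 0.113%, with no overlap. Myl1 made up at least 94.1% of that sum in every library, at 8230 ± 571 TPM in WT and 4320 ± 2010 TPM in HSA-LR. The share depends on both genes, and the part of each in it was not tested. In HSA-LR library 1 Myl4 stood at 2.36 TPM, within its WT range, and at 6.94 CPM, above that range. Myl1 stood there at 2053.74 TPM and 4850 CPM, both below WT. Myl4 is annotated with 5 overlapping genes on the opposite strand. The library kit keeps strand, but for counting the strand setting was not given in the sources used here.

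Myl6, the essential chain of smooth muscle and non-muscle myosin, was measured at 61.7, 74.2 and 87.4 CPM in WT and at 144, 87.9 and 139 CPM in HSA-LR. The groups did not overlap, but HSA-LR library 2 was level with WT library 3. Myl6 missed the threshold (log2 fold change 0.73 ± 0.21 SE, adjusted p = 0.0543) and was called in 4 of the 19 alternatives. In TPM it stood at 63.58, 80.52 and 87.22 in WT and at 66.43, 73.94 and 120.93 in HSA-LR, with overlap. Myl6b, its neighbour on chromosome 10, had 12, 23 and 11 expected counts in WT and 6, 8 and 9 in HSA-LR. At this depth its CPM of 0.849, 1.52 and 0.818 in WT and 0.571, 0.645 and 0.604 in HSA-LR did not overlap, and it was not called (log2 fold change -0.80 ± 0.47 SE, adjusted p = 0.271).

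Transcript length moved with the fold changes over all genes, and its part in the light chain values was not tested beyond the fits below. All 7 light chains fall in the class of the shortest genes (180 to 1181 bases), whose median log2 fold change was 0.31, with 178 genes called higher and 14 lower. Both kinases fall in a class of 2911 to 3542 bases with a median of -0.07. With each library's length trend removed, Mylk2 was at -1.25 (adjusted p = 0.0287) and Mylk4 at -1.20 (0.0328), both still called. Myl4 was at 1.00 (0.0678), Myl6 at 0.41 (0.196), Mylpf at -0.40 (0.248) and Myl1 at -0.76 (0.0635), none of them called.

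The tables also give the mean transcript length of each gene in each library, weighted by the estimated abundance of its transcripts. For Mylk4 it was 3583.97, 3242.04 and 3251.23 bases in WT and 2283.62, 2826.29 and 2772.71 bases in HSA-LR. Every HSA-LR library was shorter, with means of 3359.1 ± 195 bases (SD, n = 3) and 2627.5 ± 299 bases. Mylk4 has 5 transcripts in the tables, of which the 4 with the same version in GENCODE M39 range from 709 to 5641 bases and include a retained intron transcript of 1357 bases. For Myl1 the mean length was 760.48, 759.97 and 757.38 bases in WT and 767.06, 771.36 and 768.05 bases in HSA-LR, a difference of 9.5 bases with no overlap. Mylk2 has 1 transcript of 2951 bases and allows no such comparison. In exact two-sided permutation tests over the 8 other genes, Mylk4 and Myl1 reached p = 0.1, the smallest that 3 against 3 allows, and an adjusted p of 0.4, so neither difference passed. Among 11337 genes with a varying length, 8.23% were shorter and 4.55% longer in every HSA-LR library. The expected counts of Myl1 were not whole in any of the 6 libraries, as RSEM leaves them where reads are divided between genes, whereas those of the other 8 genes were whole within 0.005.

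**Figure D5:**
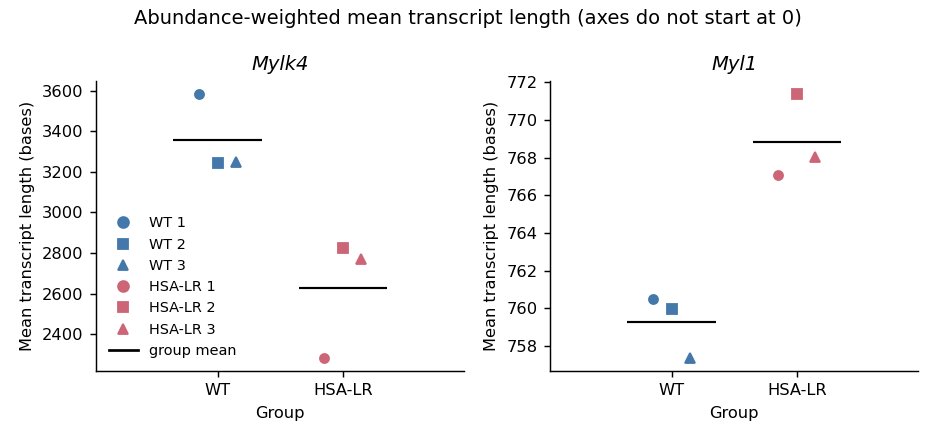
Abundance-weighted mean transcript length in bases of Mylk4 and Myl1 in each library (vertical axes do not start at 0), WT in blue and HSA-LR in red, with black lines for the group means. Mylk4 is shorter and Myl1 longer in each HSA-LR library than in each WT library.

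Other genes that act on light chain phosphorylation were described for context. Of the 12 such genes reported here 11 were tested, 3 fell and 0 rose, against 7.48% of all genes called lower and 4.28% called higher. DESeq2 called 5 of the 11 and limma-voom 3. No median is given because some genes of the list are not reported. Those that fell were Speg (-1.02 ± 0.23 SE, adjusted p = 0.0258), a muscle protein with kinase domains of the light chain kinase type, Rock2 (-1.07 ± 0.14, 0.00521), a kinase that inhibits light chain phosphatase, and Ppp1cb (-0.90 ± 0.17, 0.0158), the catalytic subunit of that phosphatase. The call of Speg was lost without WT library 1 (adjusted p = 0.12), WT library 2 (0.0851), WT library 3 (0.103) or HSA-LR library 3 (0.0854). Ppp1cb lost its call without the same libraries (adjusted p = 0.0863, 0.0754, 0.0773 and 0.0688), and Rock2 kept it in all 19 alternatives. Speg also lost it on both TPM scales, with the effective length offset and with the length trend removed. Without HSA-LR library 1 Speg was at -0.78, Ppp1cb at -0.88 and Rock2 at -1.03, all called. The smooth muscle and non-muscle kinase Mylk stood at 0.01 ± 0.32 (adjusted p = 0.99). For Rock2, Ppp1cb and Speg every HSA-LR library lay below every WT library, as for Mylk2 and Mylk4, while 37.8% of all genes tested had groups that did not overlap. Of the 5 other light chain genes 4 were tested and 0 were called by edgeR, DESeq2 or limma-voom, 0 of them at an unadjusted p under 0.05, with the lowest p for Myl12a (0.44 ± 0.20, adjusted p = 0.16) and Myl12b (0.62 ± 0.43, adjusted p = 0.351).

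The partners of the light chains moved in part. With edgeR, 4.28% of all genes tested were called higher and 7.48% lower, to be read beside each edgeR count below. DESeq2 called 2428 of the 13576 genes and limma-voom 1474, to be read beside their counts. Of 12 heavy chain genes 11 were tested, of which Myh8, the perinatal heavy chain, rose (1.3 ± 0.27 SE, adjusted p = 0.0204) and the non-muscle Myh14 fell (-1.07 ± 0.22, 0.0209). Both calls were lost without any 1 of the WT libraries or HSA-LR library 3 (adjusted p = 0.0594 to 0.104 for Myh8 and 0.0685 to 0.109 for Myh14) and with the 7SL and 7SK covariate. Myh8 was also lost on both TPM scales and Myh14 with the effective length offset. Without HSA-LR library 1 they stood at 1.09 and -0.89, both called. DESeq2 called 4 of the 11 and limma-voom 2. Myh4, the heavy chain of the fastest fibres and the most abundant here at 38700 ± 3350 CPM in WT, stood at -0.83 ± 0.33 (adjusted p = 0.122). Of 12 fast fibre genes 1 was called, the calcium pump Atp2a1 (-1.09 ± 0.29, 0.0446), and 0 of the 12 had a positive value (median -0.47), while DESeq2 called 5 and limma-voom 1. Atp2a1 was called in 10 of 19 alternatives and was lost without any 1 of the WT libraries or HSA-LR library 3 (adjusted p = 0.123 to 0.176), with upper-quartile factors, the effective length offset, the length trend removed, the replicate block and log2(TPM + 0.1). Without HSA-LR library 1 it stood at -0.83 (adjusted p = 0.00799). Of 12 slow fibre genes 0 were called by edgeR (median -0.10), 3 had an unadjusted p under 0.05, DESeq2 called 3 and limma-voom 0, with the lowest p for Mb (0.57 ± 0.18, adjusted p = 0.0695) and Fhl1 (0.79 ± 0.26, 0.0737). Of 11 genes of developing fibres 7 were tested: Sln, a regulator of the calcium pump, rose (6.29 ± 0.67, 0.00662), as did Myh8, and Actc1, the cardiac actin gene, fell (-2.15 ± 0.17, 0.00151). Sln was measured at 0.495, 1.85 and 0.0744 CPM in WT and at 81, 50.5 and 66.1 CPM in HSA-LR. Its WT counts were 7, 28 and 1, so the size of the rise rests on few counts. It stood at 7.78 without WT library 2, at 5.79 without WT library 3 and at 6.12 without HSA-LR library 1, all called, and it was not called with the 7SL and 7SK covariate (5.95, adjusted p = 0.0519). Actc1 was called in all 19 alternatives and stood at -2.0 without HSA-LR library 1.

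Markers of skeletal muscle were present in all libraries, and 0 of 8 were called by edgeR (3 at an unadjusted p under 0.05, 3 by DESeq2, 1 by limma-voom). The lowest edgeR p was that of Ttn (-1.29 ± 0.37 SE, adjusted p = 0.0537). These markers summed to 231000 to 266000 CPM in WT and 86800 to 187000 CPM in HSA-LR. Ttn alone gave 126000 to 147000 CPM of that in WT and 29700 to 79700 CPM in HSA-LR. Of the 8 markers 1, Mb, had a positive fold change. Over all 13576 genes DESeq2 called 2428 and limma-voom 1474. Markers of macrophages were higher, with 3 of 4 called (Cd68, Adgre1 and Csf1r), against 4.28% of all genes called higher. Their summed level was 79.8 to 94.5 CPM in WT and 120 to 385 CPM in HSA-LR. All 3 calls were lost without any 1 of the WT libraries or HSA-LR library 3, and of 19 alternatives Cd68 was called in 13, Adgre1 in 10 and Csf1r in 8. DESeq2 called 3 of the 4 and limma-voom 2. Without HSA-LR library 1 Cd68 stood at 1.29, Adgre1 at 0.88 and Csf1r at 0.77, all called. Fibroblast markers summed to 1040 to 1210 CPM in WT and 1130 to 4090 CPM in HSA-LR, with 0 of 5 called by edgeR, 3 at an unadjusted p under 0.05, 2 by DESeq2 and 0 by limma-voom (lowest p for Lum and Pdgfra). Smooth muscle markers, which bear on Myl6, summed to 90.2 to 92.6 CPM in WT and 80.7 to 107 CPM in HSA-LR, with 0 of 4 called by edgeR, DESeq2 or limma-voom and 0 at an unadjusted p under 0.05. The part of macrophages and fibroblasts in the Myl4 and Myl6 values was not tested. Of the markers of endothelium (3 genes tested), adipocytes (3), satellite cells (1), tendon (3) and heart muscle (1), 0 were called by edgeR, DESeq2 or limma-voom, and 1 had an unadjusted p under 0.05 in edgeR, the satellite cell gene Pax7. Adipocyte markers varied widely between libraries, with sums of 2.97 to 123 CPM in WT and 10.7 to 353 CPM in HSA-LR.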

How the data were processed

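Quadriceps total RNA (TRIzol, stranded kit with removal of ribosomal RNA, per the labels) was grouped by the genotype in the labels. The authors deposited 1 table per library with expected counts, which are RSEM estimates of reads per gene, and with TPM, which are those counts divided by effective length and brought to the same total in each library. The deposited tables also give transcript length and effective length, and FPKM was not used. RSEM 1.3.1, Bowtie2 and the build GRCm39 are named in the submitters' processing notes, while a release of the annotation was not given in the sources used here.

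After rounding of the expected counts, a filterByExpr filter and TMM scaling, groups were compared by the robust quasi-likelihood test of edgeR 4.0.16 (in R 4.3.3, beside limma 3.58.1), with genotype as the single term and Benjamini-Hochberg adjustment over 13576 genes. The study's text gives no test for these libraries. Mean transcript lengths were compared with exact permutation tests (scipy 1.17.1). Coordinates came from GENCODE M39. The genes and gene lists were chosen with earlier results of these data known. The text names the 9 genes, up to 4 called genes of each other list with the lowest p, or the 2 with the lowest p where none was called, and the 3 genes most like each of the 3 most variable members. Mylk, Myh4, Myh7, Tnni1, Nppa, Tnni3, Mybpc1 and Myl7 are also named, outside that rule and after their values were seen. Some genes of the list on light chain phosphorylation, and 1 marker list, are not reported here and were left out after their values were seen, and the other lists are whole. The limit of 3 counts for a gene without counts covers counting error only. The SE of a fold change comes from the edgeR fit and also reflects the spread between libraries. Every pair of libraries differed by more than counting noise (chi-square of their counts at least 9.68 times its degrees of freedom). There were 19 alternatives, among them DESeq2 1.42.0.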

Additional observations from a re-analysis of the deposited data

How the results depend on the processing

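Mylk2 and Mylk4 were lower and Myl4 was higher in HSA-LR in all 19 alternatives. Mylk2 was called in 15 of them (log2 fold change -1.95 to -0.82, adjusted p 5.62e-06 to 0.0809), Mylk4 in 14 (-1.48 to -0.90, adjusted p 1.49e-05 to 0.0917) and Myl4 in 9 (0.47 to 1.47, adjusted p 0.00354 to 0.376). Myl1 and Myl6b, both lower, and Myl6, higher, also kept their direction in every alternative that tested them. A constant direction thus does not set the called genes apart from these. Where calls were lost the cause was not tested. With 3 libraries a group, and few counts for Myl6b and Myl4, small differences could not be detected, and the slow chains varied too much between libraries for a difference to be called.

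Among the 9 genes, 2 were called higher with DESeq2, with upper-quartile factors and with no filter, and 0 with TPM, an effective length offset, the length trend removed, the 7SL and 7SK share as covariate, or a replicate block. With that covariate 1 was called lower. DESeq2 and log2(TPM + 1) called 3 lower, Myl1 being the third, against 2 in the reported fit. Over all genes tested, 1597 were called in the reported fit, 2428 with DESeq2, 519 with log2(TPM + 0.1), 825 with log2(TPM + 1), 742 with the effective length offset, 914 with the length trend removed and 935 with the covariate. Upper-quartile factors gave 48.2% of calls as higher, DESeq2 47.9% and TPM 9.6% or 9.5%, against 36.4%. With TPM the median log2 fold change of all genes was -0.46 and -0.28 for the pseudocounts 0.1 and 1. Leaving out 1 library gave 0 to 2 of the 9 genes higher, 0 to 2 lower and 166 to 3294 calls over all genes.

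The replicate block called 799 genes. The replicate numbers are shared by the labels of both groups, but deviations of same-numbered libraries had correlations of 0, -0.09 and 0.23, so the numbers were not taken to pair the samples. With the block Mylk2 was at -1.39 (adjusted p = 0.027), Mylk4 at -1.28 (0.0478) and Myl4 at 1.25 (0.0569).

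Among genes that were not called, directions turned as follows. With the covariate Myl2 was at -1.39, Myl3 at -1.80, Mylpf at 0.14, Myl12b at -0.25, Tagln at -0.20, Kdr at -0.45 and Tnmd at -0.87. With the length trend removed Myl3 was at -0.03. With the TPM pseudocounts 0.1 and 1, Myl12a was at -0.08 in both and Kdr at -0.54 and -0.40. With limma-voom Myh6 was at 0.20 and Kdr at 0, and with the replicate block Myh6 was at 0.29. With 1 library left out, the ranges were -0.82 to 2.59 for Myl2, -1.21 to 3.18 for Myl3, -0.21 to 0.05 for Mylpf, -1.95 to 2.43 for Myh6, -0.21 to 0.21 for Kdr, -0.75 to 2.95 for Plin1, -0.89 to 3.10 for Cidec and -0.01 to 1.88 for Tnmd. The length difference of Myl6 ranged from -21.6 to 18 bases.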

Other observations

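Within the 9 genes, the log2 CPM of Mylk2 and Mylk4 had a Pearson r of 0.95 over the 6 libraries, and Myl1 had an r of 0.97 with each kinase. Myl6 had an r of -0.90 and Myl4 an r of -0.85 with Myl1. These values are given with no test. The 6 libraries share the genotype difference and the RNA composition of HSA-LR library 1.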
